A study of Mus musculus with 12 samples.

Results

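Epithelial cells of the colon (large intestinal epithelial cells, L-IECs) were compared between *Nfat5IEC-KO* mice, in which a villin promoter drives Cre recombinase in the intestinal epithelium and removes the floxed *Nfat5* gene there, and *Nfat5fl/fl* mice, which carry the floxed alleles but no Cre. The comparison took every L-IECs array by the genotype in its label, 3 *Nfat5IEC-KO* and 3 *Nfat5fl/fl* arrays, or 6 of the 12 arrays of the series. The other 6 arrays hold ileal epithelial cells (S-IECs) of the same genotypes, with 3 arrays each. All mice were 11 weeks old and untreated, the cells were released from the tissue with EDTA, and total RNA was hybridised to an Affymetrix whole-transcript array. Cells in which the Cre did not act, and non-epithelial cells released with the epithelium, may be part of each sample. The titles number the mice of each group, and the p-values measure the spread between these arrays.

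NFAT5 is a transcription factor of the cellular response to hypertonicity. It induces genes that let cells gather compatible organic osmolytes, such as inositol, taurine, betaine and neutral amino acids, and it also induces chaperones of the HSP70 family. The colon epithelium absorbs sodium and water against a luminal content of varying osmolality, and its surface colonocytes, goblet cells, enteroendocrine cells and tuft cells all descend from *Lgr5*+ crypt stem cells. Heat shock factor 1 (HSF1) drives the heat shock genes, metal-responsive factor MTF1 drives the metallothioneins, and the SREBP factors drive the enzymes of cholesterol synthesis.

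Values are log2 summaries per transcript cluster, the array's unit for a gene, and each difference is the mean of the *Nfat5IEC-KO* arrays minus the mean of the *Nfat5fl/fl* arrays on the log2 scale. Of 41345 clusters, 25341 carry a gene symbol and were tested with limma. The values ran from 0.742 to 13.7 and the array medians from 4.48 to 4.52. Arrays of 1 genotype correlated with Pearson r of 0.990 to 0.992 across clusters and arrays of different genotype with 0.990 to 0.991. No cluster had an adjusted p under 0.05 (0.0% of 25341), and the smallest adjusted p was 0.502. An unadjusted p under 0.05 was reached by 848 clusters that were lower in *Nfat5IEC-KO* (3.35%) and 753 that were higher (2.97%). With a difference of at least 1.5-fold added, 60 were lower (0.237%) and 55 higher (0.217%), of which 19 and 17 had a mean log2 value of 5 or more in at least 1 genotype. With limma's trended and robust variance, 13 clusters had an adjusted p under 0.05, namely *Hsph1*, 3 clusters of *Hspa8*, *Nfat5*, *Slc38a2*, *Mrps6;Slc5a3*, *Etv5*, *Mpp1*, *Mt1*, *Hmgcs1*, *Fdft1* and *9030619P08Rik*. The statements below use the unadjusted p of limma as a description. Ranges in parentheses after a difference are its 95% intervals from limma, and "past the limit" means an unadjusted p under 0.05. Of 195 named clusters 134 were past it, and 58 of these stayed past it as each array was left out in turn. Those that did not are named where they are given, and not all of the 195 are given here. Genes are given with 1 cluster each, the brightest, and over the 22180 genes so represented 3.32% were lower and 2.99% higher past the limit. An exact permutation test of 3 arrays against 3 cannot give a p under 0.1.

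The cells carried the colon label in their transcripts. Of 13 measured markers of colon epithelium, 8 were higher in all 6 colon arrays than in all 6 ileal arrays, among them *Car1*, with 12.56 to 12.85 in the colon and 3.65 to 9.75 in the ileum, and *Aqp8*, with 7.85 to 8.19 in the colon and 3.53 to 4.59 in the ileum. Of the other colon markers 3 were lower in all 6 colon arrays (*Epcam*, *Krt20* and *Vil1*) and 2 overlapped (*Krt8* and *Cdx2*). Of 30 measured genes of ileal enterocytes, 29 were lower in all 6 colon arrays. The mean over the 13 colon markers was 10.62 to 10.68 in the *Nfat5IEC-KO* and 10.62 to 10.67 in the *Nfat5fl/fl* arrays. Of all 25341 tested clusters 11923 had a mean log2 value of 5 or more. Markers of immune cells were few above that value. They were 3 of 26 for T cells and intraepithelial lymphocytes, 1 of 14 for B and plasma cells and 6 of 25 for myeloid cells. For stroma, endothelium, muscle and nerve they were 11 of 25, which is not few. The mean levels of these lists overlapped between the genotypes, at 4.32 to 4.47 in *Nfat5IEC-KO* and 4.26 to 4.39 in *Nfat5fl/fl* arrays for T cells. For stroma they were 4.59 to 4.70 in *Nfat5IEC-KO* and 4.61 to 4.67 in *Nfat5fl/fl* arrays. Past an unadjusted p of 0.05 were *Gzma* (-0.35) of the T cell genes, *Cd79a* (0.53) and *Jchain* (-0.41) of the B cell genes, *C1qa* (-0.39) and *Cd14* (0.40) of the myeloid genes and *Col3a1* (0.41), *Col1a1* (-0.28) and *Lum* (-0.24) of the stromal genes, so both directions occurred. Of these 8 only *Cd79a* and *C1qa* stayed past that p as each array was left out, and the part of such cells in the differences below was not tested. The list medians were 0.13 for T cells, where 21 of 26 differences lay above 0, 0.09 for B cells, 0.01 for myeloid cells and -0.01 for stroma, so *Gzma* lay against most of its list. In whole epithelial samples such as these, fewer cells of a type and less RNA per cell cannot be told apart.

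*Nfat5* had log2 values of 6.92, 6.90 and 6.997 in the 3 *Nfat5IEC-KO* arrays and 7.49, 7.45 and 7.54 in the 3 *Nfat5fl/fl* arrays. The genotypes did not overlap, and the difference was -0.55 (95% interval -0.77 to -0.34, adjusted p = 0.544). It kept p under 0.05 when each array was left out in turn, with differences of -0.58 to -0.53. The other NFAT genes encode the calcineurin-dependent factors, and none of the 4 was past the limit: *Nfatc1* differed by -0.01 (-0.25 to 0.22), *Nfatc2* by -0.13 (-0.37 to 0.11), *Nfatc3* by 0.10 (-0.18 to 0.38) and *Nfatc4* by -0.15 (-0.39 to 0.09). A p that misses the limit does not show that these genes were equal in both genotypes. In the ileum the *Nfat5* difference was -0.10 with overlapping arrays, and the contrast of both tissues over 12 arrays gave an adjusted p of 0.264, so the ileal arrays are named below by their labels only.

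*Hspa1b* and *Hsph1*, of the HSP70 and HSP110 chaperones, had the largest differences among the named genes above a log2 value of 5 in the colon. HSP70 proteins fold and refold client proteins in an ATP-driven cycle, and HSP110 proteins exchange the nucleotide of HSP70. Of 15 measured members 5 were past the limit, all lower in *Nfat5IEC-KO* (33.3% of the list, against 3.32% of all genes). The list median was -0.16, against 0.001 over all genes, and 12 differences lay below 0 and 3 above. Above 0 were *Hspa12a* (0.33), *Hspa1l* (0.11) and *Hspa9* (0.02), none past the limit. *Hspa2* (-0.16), *Hspa13* (-0.15), *Hspa12b* (-0.04), *Hspa4* (-0.03) and *Hspa14* (-0.01) were not past it either. HSF1, which controls many of these genes, binds repeats of GAA and TTC set apart by a pair of bases. The promoters of the members with the largest differences are shown for that reason, from 250 bases before to 50 after the RefSeq gene start (GRCm38.p6), with matches to GAANNTTC or TTCNNGAA on either strand in capitals and overlapping matches joined to 1 stretch. *Hspa1b* lies at chr17:34959189-34959488, minus strand, *Hspa1a* at chr17:34972107-34972406, minus strand and the first listed start of *Hsph1* at chr5:149636287-149636586, minus strand.
Hspa1b: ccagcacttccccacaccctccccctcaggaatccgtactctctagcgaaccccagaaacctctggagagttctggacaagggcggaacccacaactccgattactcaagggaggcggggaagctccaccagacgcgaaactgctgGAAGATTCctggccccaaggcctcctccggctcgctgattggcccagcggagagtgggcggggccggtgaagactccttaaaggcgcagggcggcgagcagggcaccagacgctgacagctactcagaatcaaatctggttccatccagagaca
Hspa1a: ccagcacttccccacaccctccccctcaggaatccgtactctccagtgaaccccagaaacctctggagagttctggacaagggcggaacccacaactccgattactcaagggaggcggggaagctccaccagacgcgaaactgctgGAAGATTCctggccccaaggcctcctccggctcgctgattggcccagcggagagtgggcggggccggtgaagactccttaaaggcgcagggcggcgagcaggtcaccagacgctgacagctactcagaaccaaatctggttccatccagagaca
Hsph1: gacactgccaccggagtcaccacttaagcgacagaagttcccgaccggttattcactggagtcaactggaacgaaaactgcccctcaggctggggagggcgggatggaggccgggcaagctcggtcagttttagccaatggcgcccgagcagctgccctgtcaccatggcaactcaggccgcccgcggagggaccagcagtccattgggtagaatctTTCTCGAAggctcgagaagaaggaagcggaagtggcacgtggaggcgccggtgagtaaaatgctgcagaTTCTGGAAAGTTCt

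*Hspa1b* and *Hspa1a* hold 1 such stretch each, which starts 104 bases before the gene start, and their windows differ at 4 of 300 positions. *Hsph1* holds 2, which start 33 bases before and 36 bases after its first listed start. From a further listed start (window chr5:149636266-149636565) they lie 54 bases before and 15 bases after. The annotated *Hsph1* gene reaches to 149636498, so both listed starts lie inside it. The gene start is the first base after the 250, and positions are counted from it. Matches of this short pattern occur in a window of 17.0% of 27025 genes in the RefSeq table, and of the 11 list members with a window only these 3 had one. The longer pattern of 3 units (GAANNTTCNNGAA or TTCNNGAANNTTC), which contains the shorter one, occurs in 0.662% of genes and in *Hsph1* alone among the 11. A match is a description of letters and not a measured binding site.

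*Hsph1*, which encodes HSP110, had 6.49, 6.33 and 6.24 in *Nfat5IEC-KO* and 8.16, 8.03 and 7.31 in *Nfat5fl/fl* arrays. The difference was -1.48 (95% interval -1.95 to -1.005, adjusted p = 0.502), and all *Nfat5IEC-KO* arrays lay below all *Nfat5fl/fl* arrays. *Hspa1b*, an inducible HSP70, had 5.90, 5.58 and 6.15 in *Nfat5IEC-KO* arrays, against 8.26, 7.56 and 6.45 in *Nfat5fl/fl* arrays. Its difference was -1.54 (95% interval -2.43 to -0.66, adjusted p = 0.712). The 3 *Nfat5fl/fl* arrays were spread over more than the *Nfat5IEC-KO* arrays, and replicate 3 of *Nfat5fl/fl* lay nearest to the *Nfat5IEC-KO* arrays for both genes. Without that array the difference of *Hsph1* was -1.74 (adjusted p = 0.0352 from limma), and across arrays left out the difference of *Hspa1b* ran from -2.03 to -1.12. *Hspa1a* had 4.004, 4.52 and 4.78 in *Nfat5IEC-KO* and 5.18, 5.53 and 5.01 in *Nfat5fl/fl* arrays, a difference of -0.80 (95% interval -1.28 to -0.33, adjusted p = 0.713). The coding sequences of *Hspa1a* and *Hspa1b* are nearly identical, so their clusters may share signal, and the cluster annotated to both (*Hspa1a;Hspa1b*) had 3.94, 3.96 and 4.42 in *Nfat5IEC-KO* and 5.49, 4.99 and 4.66 in *Nfat5fl/fl* arrays.

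**Figure D1:**
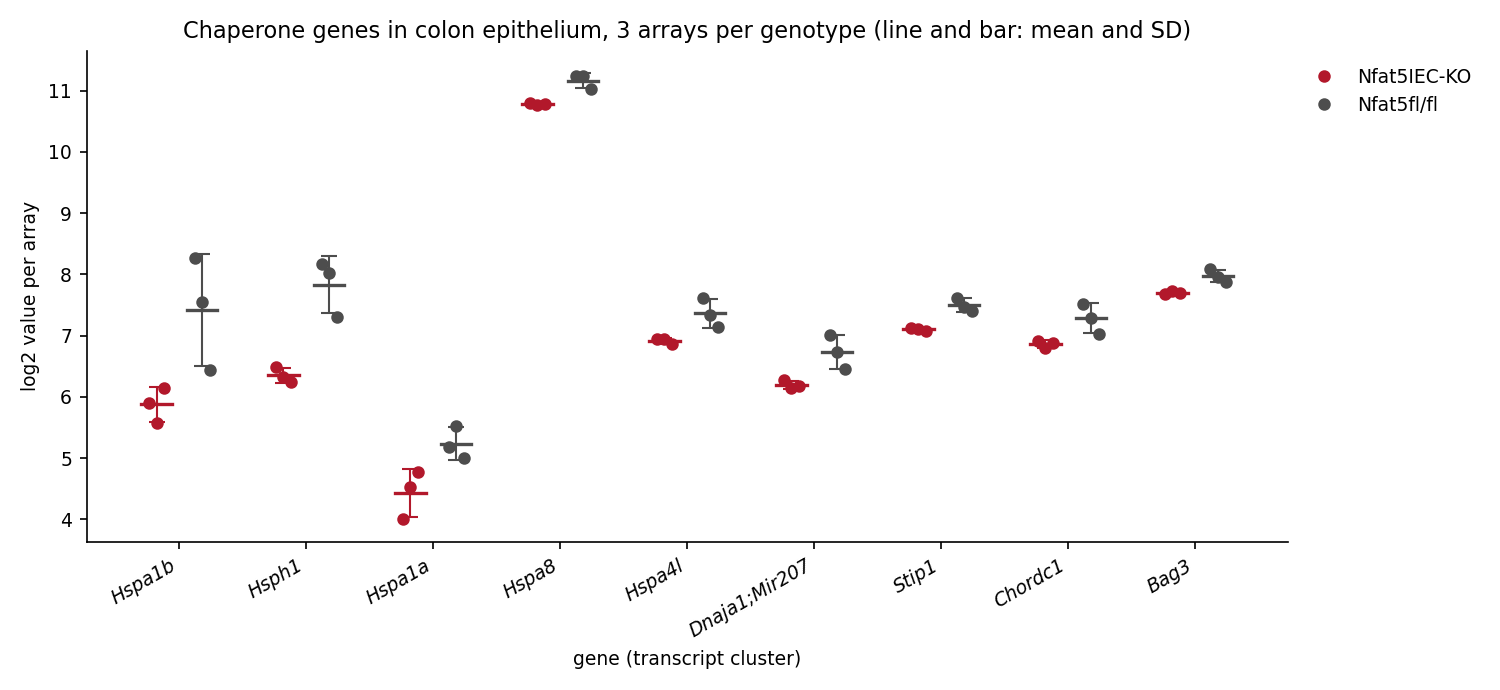
Log2 value on each of 3 *Nfat5IEC-KO* and 3 *Nfat5fl/fl* colon arrays for 9 chaperone clusters, with a line at the mean and a bar of 1 SD. For each of the 9, all *Nfat5IEC-KO* arrays lie below all *Nfat5fl/fl* arrays, and the *Nfat5fl/fl* arrays of *Hspa1b* are the most widely spread. Only clusters lower at an unadjusted p under 0.05 are drawn, so their common direction follows from the choice. Chaperones not past that limit, such as *Hspa5* and *Hspa12a*, are left out.

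*Hspa8*, the constitutive HSP70 (HSC70), was lower on each of the 4 clusters that carry its symbol alone. The brightest had 10.79, 10.77 and 10.78 in *Nfat5IEC-KO* and 11.24, 11.23 and 11.02 in *Nfat5fl/fl* arrays, a difference of -0.38 (95% interval -0.62 to -0.15, adjusted p = 0.743). The other 3 clusters of this symbol differed by -0.67, -0.65 and -0.51, and the genotypes did not overlap on any of them. A cluster annotated to *Hspa8* together with a small nucleolar RNA of its introns (*Snord14e;Hspa8*) had 8.45, 9.05 and 9.15 in *Nfat5IEC-KO* and 9.11, 9.18 and 8.67 in *Nfat5fl/fl* arrays, with overlap and a difference of -0.10 (-0.57 to 0.37). The sources do not say which copy each cluster reads, and *Hspa8* has processed copies elsewhere in the genome. *Hspa4l*, a further HSP110 protein, had 6.95, 6.94 and 6.86 in *Nfat5IEC-KO* and 7.61, 7.34 and 7.14 in *Nfat5fl/fl* arrays, a difference of -0.45 (-0.75 to -0.15). *Hspa5* (BiP) and *Hyou1* are the HSP70 and HSP110 proteins of the endoplasmic reticulum. They differed by -0.31 (-0.65 to 0.03) and -0.26 (-0.56 to 0.04), with overlapping arrays. Of the cytosolic partners, the HSP90 and co-chaperone list had 3 of 17 members past the limit, all lower (17.6%, against 3.32% of all genes). Its median was -0.12, and 5 members were lower past the limit without *Nfat5IEC-KO* replicate 2 or *Nfat5fl/fl* replicate 3. *Stip1* (HOP), which joins HSP70 to HSP90, had 7.13, 7.11 and 7.08 in *Nfat5IEC-KO* and 7.62, 7.47 and 7.40 in *Nfat5fl/fl* arrays. Its difference was -0.39 (-0.62 to -0.16). *Chordc1*, an HSP90 co-chaperone, differed by -0.42 (-0.73 to -0.11), and *Fkbp5*, an HSP90-bound immunophilin that is also induced by glucocorticoids, by -0.51 (-0.80 to -0.22). *Hsp90aa1* itself differed by -0.24 (-0.58 to 0.09). The HSP40 list had 0 of 18 members past the limit in either direction, while the cluster annotated to the HSP40 gene *Dnaja1* together with a microRNA (*Dnaja1;Mir207*) had 6.28, 6.15 and 6.17 in *Nfat5IEC-KO* and 7.02, 6.73 and 6.45 in *Nfat5fl/fl* arrays. Of 24 small heat shock proteins, chaperonins and other HSF1 targets only *Bag3*, an HSP70 nucleotide exchange factor, was past the limit (4.17%, near the 3.32% of all genes). It differed by -0.27 (-0.50 to -0.04) and lost the limit without *Nfat5IEC-KO* replicate 1 or 3 or *Nfat5fl/fl* replicate 1, with differences of -0.32 to -0.22.

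Genes that bring osmolytes into cells or belong to the wider osmotic response were the next group. Of 23 listed genes 18 were measured, 6 were lower past the limit and 0 higher (33.3% lower, against 3.32% of all genes). The list median was -0.08. The 6 are *Hspa1b* and *Hspa4l*, described above, with *Slc38a2*, *Slc6a6*, *Wnk1* and *Sgk1*. *Slc38a2* encodes SNAT2, a sodium-coupled carrier of neutral amino acids. It had 8.71, 8.73 and 8.80 in *Nfat5IEC-KO* and 9.29, 9.32 and 9.14 in *Nfat5fl/fl* arrays, with a difference of -0.50 (95% interval -0.73 to -0.28, adjusted p = 0.668). *Slc6a6*, the taurine carrier, had 8.99, 8.70 and 8.86 in *Nfat5IEC-KO* and 9.28, 9.35 and 9.11 in *Nfat5fl/fl* arrays, a difference of -0.40 (-0.67 to -0.13). The inositol carrier gene *Slc5a3* overlaps *Mrps6* and shares a cluster with it, so the array does not separate these genes. That cluster (*Mrps6;Slc5a3*) had 7.41, 7.30 and 7.23 in *Nfat5IEC-KO* and 7.93, 7.75 and 7.91 in *Nfat5fl/fl* arrays, a difference of -0.55 (95% interval -0.79 to -0.32, adjusted p = 0.668). *Wnk1*, a kinase that senses chloride and cell volume, differed by -0.27 (-0.49 to -0.06) and lost the limit without *Nfat5IEC-KO* replicate 3 or *Nfat5fl/fl* replicate 1. The betaine carrier *Slc6a12* differed by 0.11 (-0.13 to 0.34) and the cotransporter *Slc12a2* by 0.10 (-0.11 to 0.32), so the carriers of the list differed among themselves. The NFAT5 core letters TGGAAA, searched on both strands, are in a window of 4 of the 17 members that have one (*Pnpla6*, *Sgk1*, *Slc6a12* and *Stk39*) and of 23.9% of 27025 genes.

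**Figure D2:**
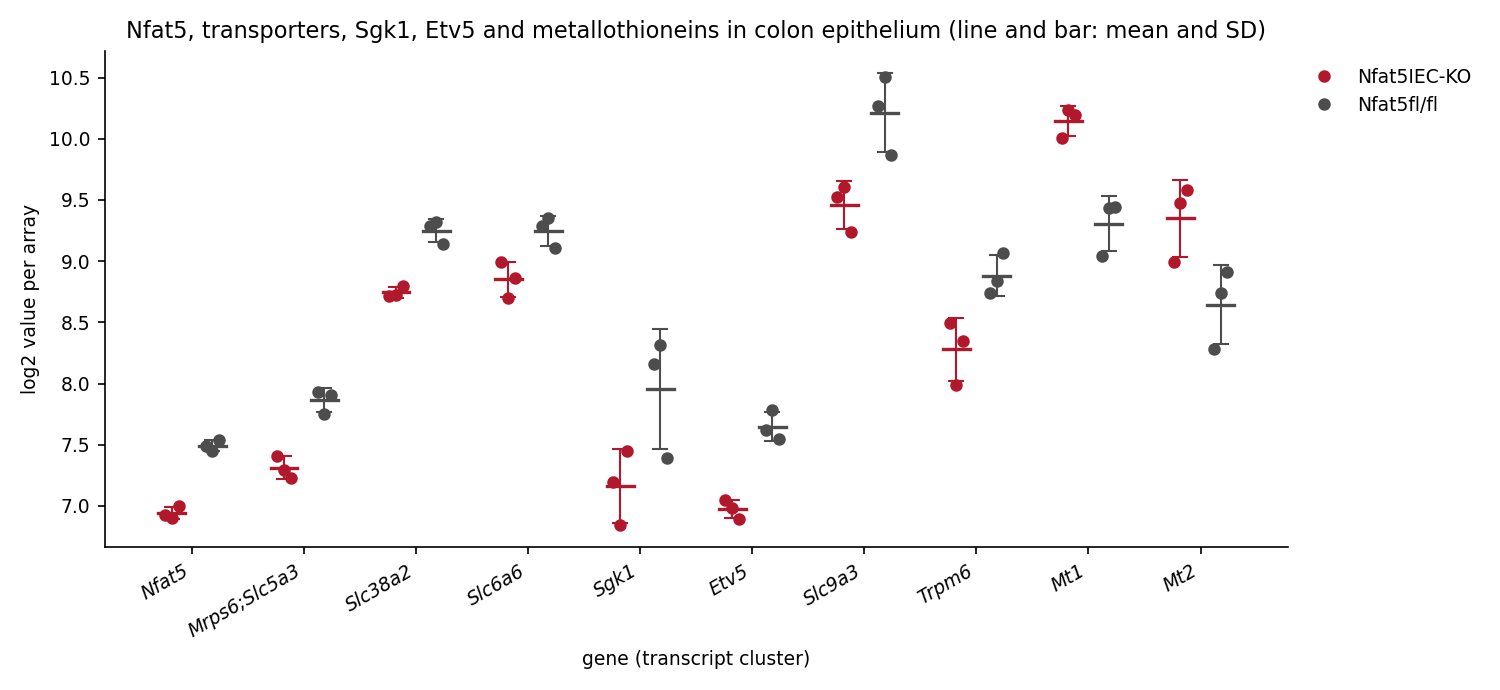
Log2 value on each of 3 *Nfat5IEC-KO* and 3 *Nfat5fl/fl* colon arrays for *Nfat5*, carriers and ion channels, *Sgk1*, *Etv5* and the metallothioneins *Mt1* and *Mt2*, with a line at the mean and a bar of 1 SD. The genotypes overlap only for *Sgk1*, and only *Mt1* and *Mt2* are higher in *Nfat5IEC-KO*.

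*Sgk1*, a kinase induced by osmotic stress and by corticosteroids that raises sodium uptake, had 7.20, 6.85 and 7.45 in *Nfat5IEC-KO* and 8.16, 8.32 and 7.39 in *Nfat5fl/fl* arrays. The genotypes overlapped, since *Nfat5fl/fl* replicate 3 lay among the *Nfat5IEC-KO* arrays, and the difference was -0.79 (-1.35 to -0.23), with -1.07 to -0.61 when each array was left out. On the list of corticosteroid-responsive genes and sodium channel subunits, 4 of 26 were lower past the limit (15.4%, against 3.32% of all genes). One-sidedness was not complete, with 1 higher (3.85%, against 2.99% of all genes). The list median was -0.12, and 2 were lower without *Nfat5IEC-KO* replicate 1. Beside *Sgk1* and *Fkbp5* the 4 lower ones were *Tsc22d3* (GILZ), at -0.31 (-0.55 to -0.07), and *Ddit4* (REDD1), at -0.27 (-0.50 to -0.04), both induced by glucocorticoids in many cells. *Cyp11a1*, the first enzyme of steroid synthesis, was higher by 0.27 (0.04 to 0.50). *Tsc22d3* lost the limit without *Nfat5IEC-KO* replicate 1, and *Ddit4* and *Cyp11a1* without several single arrays. *Scnn1g*, a subunit of the epithelial sodium channel, differed by -0.44 (-0.93 to 0.06).

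Of 38 measured genes of colonocyte ion and water transport, 6 were lower past the limit and 0 higher. The lower ones were 15.8% of the list, against 3.32% of all genes, and the list median was -0.02. *Slc9a3* encodes NHE3, an apical exchanger through which surface colonocytes take up sodium. It had 9.52, 9.61 and 9.24 in *Nfat5IEC-KO* and 10.27, 10.51 and 9.87 in *Nfat5fl/fl* arrays. The genotypes did not overlap, the difference was -0.76 (95% interval -1.15 to -0.36, adjusted p = 0.668), and it kept p under 0.05 without each array. *Slc26a3*, the chloride-bicarbonate exchanger DRA, differed by -0.26 (-0.48 to -0.05). *Trpm6*, the apical magnesium channel, had 8.49, 7.99 and 8.35 in *Nfat5IEC-KO* and 8.74, 8.84 and 9.06 in *Nfat5fl/fl* arrays, a difference of -0.60 (95% interval -0.95 to -0.26, adjusted p = 0.712). The calcium channel *Trpv6* differed by -0.33 (-0.63 to -0.03), the colonic proton pump *Atp12a* by -0.43 (-0.81 to -0.05) and the carbonic anhydrase *Car12* by -0.32 (-0.59 to -0.06). *Slc26a3* lost the limit without *Nfat5IEC-KO* replicate 2 or 3, and *Trpv6*, *Atp12a* and *Car12* each without 3 of the single arrays, so that 3 to 6 members of the list were past it as each array was left out, with 3 without *Nfat5IEC-KO* replicate 2 or 3. The water channel *Aqp8*, at -0.05 (-0.31 to 0.20), the carbonic anhydrases *Car1*, at 0.02 (-0.23 to 0.27), and *Car4*, at 0.02 (-0.21 to 0.25), and the chloride channel *Cftr*, at -0.17 (-0.43 to 0.08), were not past the limit.

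Metallothioneins are small cysteine-rich proteins that bind zinc and copper, and *Mt1* had the largest positive difference among the named genes past the limit above a log2 value of 5. *Mt1* had 10.01, 10.24 and 10.20 in *Nfat5IEC-KO* and 9.05, 9.43 and 9.44 in *Nfat5fl/fl* arrays, with a difference of 0.84 (95% interval 0.53 to 1.15, adjusted p = 0.544). *Mt2* had 8.99, 9.47 and 9.58 in *Nfat5IEC-KO* arrays, against 8.29, 8.74 and 8.91 in *Nfat5fl/fl* arrays, a difference of 0.70 (95% interval 0.25 to 1.16, adjusted p = 0.744). Both genes were without overlap and kept p under 0.05 without each array, with differences of 0.71 to 0.91 for *Mt1* and 0.53 to 0.88 for *Mt2*. *Mt3* differed by 0.10 (-0.21 to 0.41) and *Mt4* by 0.09 (-0.25 to 0.43). Among 21 measured genes of metallothioneins and zinc transport 3 were higher past the limit and 1 lower (14.3% higher, against 2.99% of all genes). The third was *Slc30a2*, a zinc transporter of vesicles, at 0.72 (0.27 to 1.18) with all its arrays under a log2 value of 5. *Mtf1*, which encodes the metal-responsive factor itself, differed by -0.22 (-0.43 to -0.01) and lost the limit whichever array was left out. Of the clusters annotated to the zinc and manganese transporter gene Slc30a10 together with a predicted gene, outside that count, 1 (*Slc30a10;Gm2061*) was lower past the limit, at -0.46 (-0.89 to -0.03), and the other (*Gm2061;Slc30a10*) differed by 0.06 (-0.32 to 0.44). *Slc30a10;Gm2061* lost the limit without *Nfat5IEC-KO* replicate 2 or 3 or *Nfat5fl/fl* replicate 2 or 3, with differences of -0.59 to -0.28.

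The promoters of both genes are neighbours on chromosome 8 and are shown because this factor reads its metal response elements from them. Capitals mark matches to TGCACNC or TGCGCNC on either strand in the windows of *Mt1* (chr8:94178839-94179138, plus strand) and *Mt2* (chr8:94172368-94172667, plus strand).
Mt1: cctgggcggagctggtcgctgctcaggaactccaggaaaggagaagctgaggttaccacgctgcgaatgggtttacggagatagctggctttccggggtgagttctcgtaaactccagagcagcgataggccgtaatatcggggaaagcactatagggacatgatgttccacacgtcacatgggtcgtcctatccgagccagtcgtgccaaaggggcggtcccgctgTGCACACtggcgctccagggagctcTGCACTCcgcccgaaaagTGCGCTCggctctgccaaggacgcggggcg
Mt2: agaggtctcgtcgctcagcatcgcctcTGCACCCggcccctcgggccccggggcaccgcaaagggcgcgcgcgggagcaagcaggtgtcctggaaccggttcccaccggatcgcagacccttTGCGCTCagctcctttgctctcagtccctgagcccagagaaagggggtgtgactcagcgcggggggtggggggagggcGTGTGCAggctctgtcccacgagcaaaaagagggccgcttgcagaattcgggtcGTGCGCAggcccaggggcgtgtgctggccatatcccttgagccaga

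*Mt1* holds 3 matches, which start at 23 bases before and 2 and 20 bases after the start used for its window. The annotated *Mt1* gene begins farther upstream, at 94178883, so all 3 matches lie inside it. *Mt2* holds 4, which start at 223, 128 and 50 bases before and 4 bases after its gene start. The pattern is short and occurs in a window of 28.2% of all genes, and 13 of 21 members of the zinc list with a window hold it.

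Genes of sterol and fatty acid synthesis make cholesterol and long-chain lipids, and those past the limit were all higher. Of 33 listed genes 27 were measured, 11 were higher past the limit and 0 lower (40.7% of the list, against 2.99% of all genes). In 15 of the 27 all *Nfat5IEC-KO* arrays lay above all *Nfat5fl/fl* arrays (55.6%, against 5.74% of all genes), and 24 of 27 differences were above 0. The list median was 0.21, and it ran from 0.18 to 0.23 as each array was left out. The mean level of the list was 7.88, 7.97 and 7.88 in the *Nfat5IEC-KO* arrays and 7.76, 7.60 and 7.65 in the *Nfat5fl/fl* arrays, so the arrays of the genotypes did not overlap. The differences were small, and the number of members past the limit ran from 6 to 11 as each array was left out, with 6 without *Nfat5IEC-KO* replicate 2 or *Nfat5fl/fl* replicate 2 and 7 without *Nfat5fl/fl* replicate 3.

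*Hmgcs1*, which makes HMG-CoA at the start of the mevalonate pathway, had 9.67, 9.79 and 9.76 in *Nfat5IEC-KO* and 9.35, 9.07 and 9.12 in *Nfat5fl/fl* arrays. Its difference was 0.56 (95% interval 0.30 to 0.81, adjusted p = 0.668). The promoter window of *Hmgcs1* (chr13:119690101-119690400, plus strand) is shown with its match to the sterol regulatory element TCACNCCAC, searched on both strands, in capitals, since SREBP factors read such elements.
Hmgcs1: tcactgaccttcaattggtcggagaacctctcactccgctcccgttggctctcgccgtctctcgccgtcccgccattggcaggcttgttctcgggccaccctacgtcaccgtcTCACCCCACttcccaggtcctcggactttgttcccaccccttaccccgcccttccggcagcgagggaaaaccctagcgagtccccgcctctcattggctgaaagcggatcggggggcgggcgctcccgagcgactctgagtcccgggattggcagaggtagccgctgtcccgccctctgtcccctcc

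The match starts 137 bases before the gene start. This pattern occurs in a window of 1.44% of all genes, and *Hmgcs1* is the only one of 23 list members with a window that holds it.

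Farther along the pathway, *Fdft1* (squalene synthase) had 8.55, 8.61 and 8.50 in *Nfat5IEC-KO* and 8.17, 7.97 and 8.01 in *Nfat5fl/fl* arrays, a difference of 0.51 (95% interval 0.27 to 0.74, adjusted p = 0.668). *Sqle*, which epoxidises squalene, had 7.92, 8.15 and 8.06 in *Nfat5IEC-KO* and 7.84, 7.55 and 7.53 in *Nfat5fl/fl* arrays, a difference of 0.41 (0.13 to 0.68). *Lss*, which closes the ring to lanosterol, differed by 0.46 (0.17 to 0.75), and *Msmo1*, which removes methyl groups from the sterol ring, by 0.47 (0.25 to 0.68). The enzymes *Fdps*, *Hsd17b7* and *Nsdhl* differed by 0.34 (0.0014 to 0.69), 0.31 (0.04 to 0.58) and 0.29 (0.04 to 0.54). *Acss2* and *Acly* supply acetyl-CoA and differed by 0.26 (0.00089 to 0.53) and 0.21 (0.00085 to 0.42). These last 5 lost the limit without at least 1 array, with *Fdps* at 0.20 to 0.43, while *Hmgcs1*, *Insig1*, *Fdft1*, *Msmo1*, *Lss* and *Sqle* kept it without each array. *Insig1*, whose product holds the SREBP complex in the endoplasmic reticulum and whose gene is itself an SREBP target, had 9.51, 9.61 and 9.61 in *Nfat5IEC-KO* and 8.88, 8.85 and 9.24 in *Nfat5fl/fl* arrays, a difference of 0.59 (95% interval 0.30 to 0.87, adjusted p = 0.668).

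Among members not past the limit, *Cyp51* differed by 0.31 (-0.02 to 0.65), *Srebf1* by 0.19 (-0.04 to 0.42) and *Srebf2* by -0.05 (-0.31 to 0.21). The fatty acid genes *Fasn*, at 0.10 (-0.14 to 0.34), and *Elovl6*, at -0.10 (-0.35 to 0.16), had intervals that include 0. A cluster annotated to the desaturase *Scd2* and a microRNA (*Scd2;Mir5114*) had 11.76, 11.71 and 11.56 in *Nfat5IEC-KO* and 11.35, 11.12 and 11.41 in *Nfat5fl/fl* arrays.

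**Figure D3:**
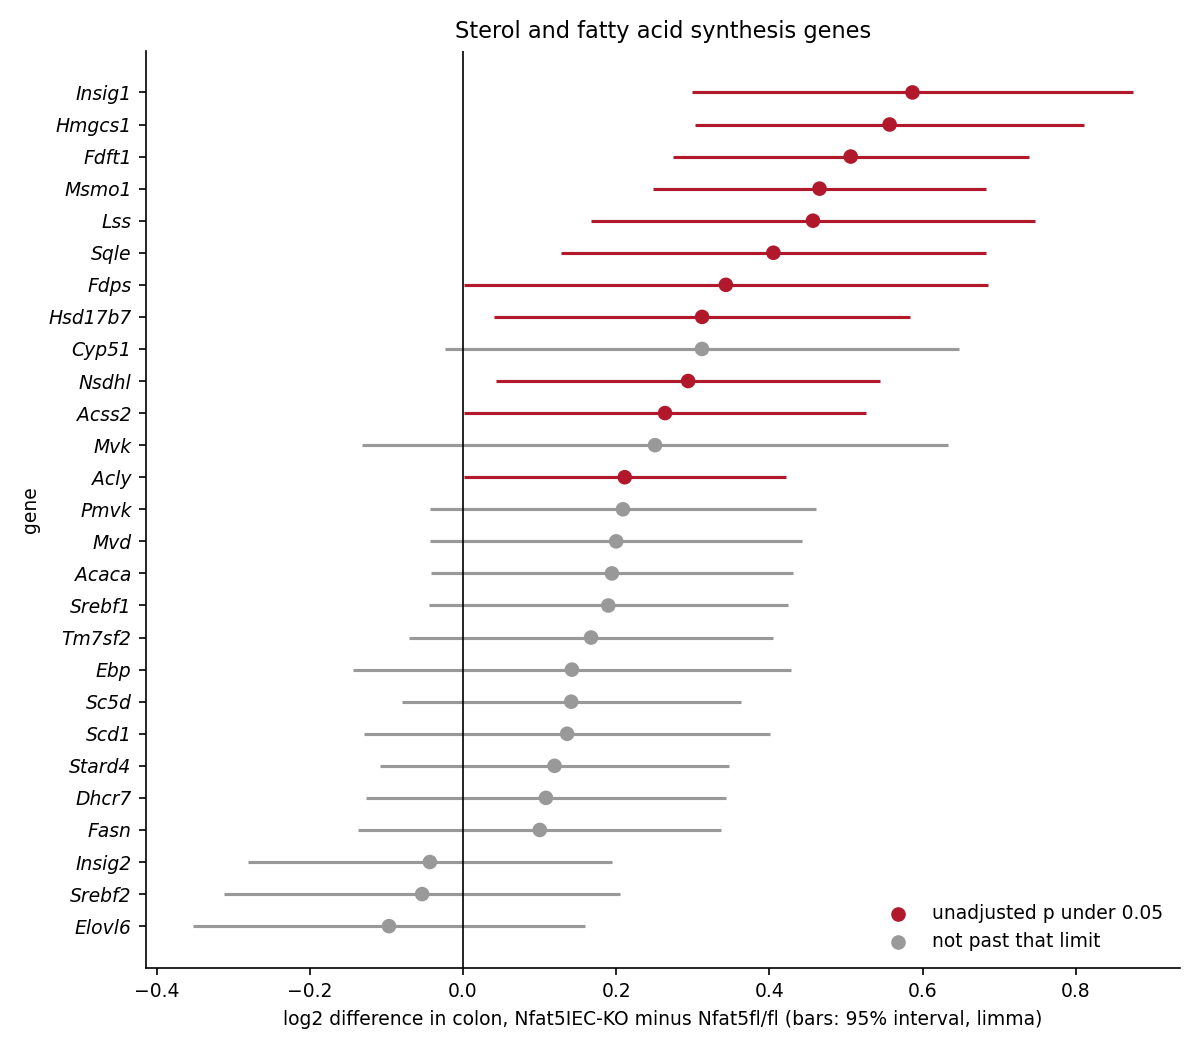
Log2 difference in the colon, *Nfat5IEC-KO* minus *Nfat5fl/fl*, for 27 genes of sterol and fatty acid synthesis, with limma's 95% interval. The 11 red genes are past an unadjusted p of 0.05, and 24 of the 27 points lie to the right of 0.

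Of 19 measured targets and inhibitors of receptor tyrosine kinase and ERK signalling 15 had a difference below 0. *Etv5*, an ETS factor induced by ERK, had 7.05, 6.98 and 6.90 in *Nfat5IEC-KO* and 7.62, 7.78 and 7.54 in *Nfat5fl/fl* arrays, a difference of -0.67 (95% interval -0.92 to -0.43, adjusted p = 0.544). *Spry4*, a feedback inhibitor of the pathway, had 4.501, 4.75 and 4.41 in *Nfat5IEC-KO* and 5.17, 5.11 and 4.95 in *Nfat5fl/fl* arrays, a difference of -0.52 (-0.80 to -0.24). These were the 2 of 19 list members past the limit (10.5%, against 3.32% of all genes, list median -0.13), both without overlap. Without *Nfat5fl/fl* replicate 3 there were 4 lower ones. The phosphatase *Dusp6* differed by -0.37 (-0.77 to 0.04) and the ligand *Ereg* by -0.32 (-0.66 to 0.03). *Irs2*, an adaptor of the insulin receptor, had 7.33, 7.48 and 7.75 in *Nfat5IEC-KO* and 8.31, 8.10 and 8.03 in *Nfat5fl/fl* arrays, a difference of -0.63 (95% interval -0.94 to -0.32, adjusted p = 0.668).

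In the unfolded protein response and ER-associated degradation list 2 of 31 genes were past the limit, both lower (6.45%, against 3.32% of all genes). The lower ones were 5 without *Nfat5fl/fl* replicate 3 and 6 with trended and robust variance. *Ddit3*, the stress factor CHOP, had 5.68, 5.73 and 5.72 in *Nfat5IEC-KO* and 6.26, 6.15 and 6.14 in *Nfat5fl/fl* arrays, a difference of -0.47 (-0.68 to -0.25). *Syvn1*, the ubiquitin ligase HRD1 of ER-associated degradation, had 7.37, 7.50 and 7.35 in *Nfat5IEC-KO* and 7.87, 7.82 and 7.72 in *Nfat5fl/fl* arrays, a difference of -0.40 (-0.63 to -0.17). Both kept p under 0.05 without each array. Of 32 ATF4 targets 4 were lower (12.5%, against 3.32% of all genes) and 0 higher, namely *Slc38a2*, *Ddit3*, *Slc1a4* (-0.64, with overlap) and *Sesn2* (-0.32). Without *Nfat5IEC-KO* replicate 3 or *Nfat5fl/fl* replicate 2 there were 2 lower ones. The list had no common direction, with a median of 0.03 and 19 of 32 differences above 0. With the methods' t-test 2 were lower and 2 higher. Of 57 ribosome biogenesis genes 4 were lower (7.02%, against 3.32% of all genes), *Noc3l* (-0.38), *Nolc1* (-0.36), *Wdr12* (-0.32) and *Polr1b* (-0.38). *Npm1* (0.24) was the 1 that was higher (1.75%, against 2.99%). The count of lower ones was 9 without *Nfat5fl/fl* replicate 3 and 2 without *Nfat5IEC-KO* replicate 1 or 2. On leaving out single arrays *Noc3l* and *Nolc1* kept the limit, while *Slc1a4*, *Sesn2*, *Wdr12*, *Polr1b* and *Npm1* lost it without at least 1 of them.

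By the rule for the largest differences among genes above a log2 value of 5, 13 lower and 8 higher clusters qualified, and most of the lower ones have been given above. *Mpp1*, a membrane scaffold protein, had 5.68, 4.98 and 5.75 in *Nfat5IEC-KO* and 6.85, 6.62 and 6.72 in *Nfat5fl/fl* arrays, a difference of -1.26 (95% interval -1.71 to -0.81, adjusted p = 0.544). *Treh*, the brush border trehalase, had 4.14, 4.56 and 4.63 in *Nfat5IEC-KO* and 5.27, 5.15 and 5.004 in *Nfat5fl/fl* arrays, a difference of -0.70 (95% interval -1.03 to -0.36, adjusted p = 0.668), at a low level in the colon. *Slc37a2*, a sugar phosphate exchanger, had 9.28, 8.11 and 8.84 in *Nfat5IEC-KO* and 9.34, 9.35 and 9.87 in *Nfat5fl/fl* arrays. Its difference of -0.78 (-1.41 to -0.14) lost the limit without *Nfat5IEC-KO* replicate 2 or *Nfat5fl/fl* replicate 3 and ran from -1.04 to -0.46. *Plscr4*, a scramblase family gene, differed by -0.62 (-1.05 to -0.20). On the higher side, *Anxa8*, an annexin, had 7.14, 6.95 and 6.70 in *Nfat5IEC-KO* and 6.28, 6.01 and 6.44 in *Nfat5fl/fl* arrays, a difference of 0.69 (95% interval 0.34 to 1.03, adjusted p = 0.668). *Enpep*, the glutamyl aminopeptidase of the brush border, had 6.77, 6.79 and 6.65 in *Nfat5IEC-KO* and 5.80, 6.12 and 6.39 in *Nfat5fl/fl* arrays, a difference of 0.64 (95% interval 0.29 to 0.98, adjusted p = 0.702). The class I gene *H2-Q10* differed by 0.75 (0.35 to 1.15), the HSP90-associated factor *Rpap3* by 0.60 (0.28 to 0.91) and the kinase *Map2k6*, which activates p38, by 0.59 (0.18 to 0.99). All of these except *Slc37a2* kept p under 0.05 without each array.

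Among the differentiated cell types, 3 of 25 goblet cell genes were lower past the limit and 0 higher (12%, against 3.32% of all genes, list median 0.04). The counts were 3 lower and 3 higher without *Nfat5IEC-KO* replicate 1, 5 lower and 3 higher with trended and robust variance and 4 lower and 2 higher with the methods' t-test, and 2 were lower without *Nfat5IEC-KO* replicate 2 or 3 or *Nfat5fl/fl* replicate 1. *Spdef*, a factor needed for goblet cell maturation, had 7.82, 7.91 and 7.94 in *Nfat5IEC-KO* and 8.48, 8.37 and 8.15 in *Nfat5fl/fl* arrays, a difference of -0.44 (-0.70 to -0.18). *Muc1*, a membrane mucin, differed by -0.49 (-0.81 to -0.17), with means under a log2 value of 5 in both genotypes. *Gcnt3*, an enzyme of mucin glycosylation, differed by -0.32 (-0.61 to -0.04) and lost the limit without at least 1 array (-0.43 to -0.23). The secreted mucin *Muc2* differed by -0.06 (-0.27 to 0.14). *Retnlb*, at 0.81 (-0.98 to 2.60), and *Ang4*, at 0.90 (-0.36 to 2.17), varied so widely between arrays that either direction lies within the interval. *Lgr5*, the crypt stem cell receptor, had 6.24, 6.26 and 5.995 in *Nfat5IEC-KO* and 5.84, 6.01 and 5.76 in *Nfat5fl/fl* arrays. The groups overlapped, and its difference of 0.30 (0.03 to 0.57) lost the limit without *Nfat5IEC-KO* replicate 1 or 2 or *Nfat5fl/fl* replicate 1 or 3. Of 30 genes of stem cells and Wnt targets 2 were lower (*Mex3a*, -0.33, and *Cd44*, -0.25) and *Lgr5* alone was higher. These were 6.67% lower and 3.33% higher, against 3.32% and 2.99% of all genes. The higher share was thus near that of all genes. *Mex3a* and *Cd44* also lost the limit without at least 1 array, with differences of -0.40 to -0.22 and -0.32 to -0.19.

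*Neurog3*, the factor that commits crypt cells to the enteroendocrine lineage, was higher by 0.52 (0.20 to 0.84), and *Tac1* by 0.29 (0.01 to 0.58). They were the only 2 of 28 enteroendocrine genes past the limit (7.14% higher, against 2.99% of all genes). *Neurog3* kept the limit without each array, and *Tac1* did not, with differences of 0.23 to 0.42. Both genes had means under a log2 value of 5 in both genotypes, where array values say least about level. Tuft cell genes had 0 of 18 past the limit and tight and adherens junction genes 0 of 24, with *Tjp1* at -0.10 (-0.32 to 0.12) and *Ocln* at -0.02 (-0.26 to 0.22). In mitosis 1 of 42 genes was past it and higher (2.38%, against 2.99% of all genes), so not above the share of all genes. This gene, *Bub1*, differed by 0.32 (0.04 to 0.61) and also lost the limit without at least 1 array (0.22 to 0.39). *Mki67* differed by -0.03 (-0.28 to 0.22). The defensin genes of Paneth cells lie around the array median in the colon, where *Defa21* was at 4.11 to 5.05, against 12.6 to 13.3 in the ileum. Of 14 Paneth cell genes 3 were lower past the limit (21.4%, against 3.32% of all genes) and 0 higher. In the same list 9 differences lay above 0 and the list median was 0.14. Without *Nfat5fl/fl* replicate 1 the counts were 1 lower and 5 higher, and 1 was lower without *Nfat5IEC-KO* replicate 2, so the list had no steady direction. *Defa21*, at 4.22, 4.11 and 4.31 in *Nfat5IEC-KO* and 5.04, 4.89 and 5.05 in *Nfat5fl/fl* colon arrays, was without overlap, and the lysozyme gene *Lyz1* differed by 0.22 (-0.18 to 0.63). The antimicrobial lectins *Reg3g* and *Reg3b* differed by -0.58 (-1.25 to 0.09) and -0.48 (-1.36 to 0.40).

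Carboxylesterases, which hydrolyse drugs and lipid esters, had 5 of 14 genes lower past the limit and 1 higher. The lower ones were 35.7%, against 3.32% of all genes, and the list median was -0.10. *Ces2b* differed by -0.57 (-0.99 to -0.14), *Ces1h* by -0.45 (-0.72 to -0.18), *Ces3a* by -0.34 (-0.61 to -0.07), *Ces3b* by -0.31 (-0.57 to -0.05) and *Ces1f* by -0.31 (-0.58 to -0.03), all without overlap, and *Ces1c* by 0.78 (0.10 to 1.45) with overlap. Only *Ces1h* kept the limit without each array, and 2 were lower without *Nfat5IEC-KO* replicate 2 or *Nfat5fl/fl* replicate 2. *Ces1h*, *Ces3a*, *Ces3b* and *Ces1c* had means under a log2 value of 5 in both genotypes, where array values say least about level. Members of this gene family resemble each other in sequence. Interferon-stimulated genes had 4 of 29 higher and 0 lower (13.8% higher, list median 0.10). *Zbp1*, a sensor of nucleic acids, differed by 0.43 (0.14 to 0.71), the immunity-related GTPase *Igtp* by 0.55 (0.16 to 0.94), the guanylate-binding protein *Gbp4* by 0.49 (0.08 to 0.90) and *Oas2*, which makes 2-5A, by 0.33 (0.03 to 0.62). *Zbp1* and *Igtp* kept the limit without each array, and *Gbp4* and *Oas2* did not, with differences of 0.28 to 0.63 and 0.26 to 0.43. The means of *Igtp* and *Gbp4* were under a log2 value of 5 in both genotypes. Without *Nfat5IEC-KO* replicate 3 the count of higher ones was 7, and it was 1 with the methods' t-test. Of 43 genes of regional identity and the Hox clusters 4 lower and 2 higher were past the limit, among them *Hoxb8*, at -0.55 (-0.84 to -0.26), and *Hoxd11*, at 0.42 (0.17 to 0.67). Without *Nfat5fl/fl* replicate 1 these counts were 1 lower and 3 higher, and with trended and robust variance 8 lower and 2 higher. Of 43 cytochromes P450 of families 1 to 4, 4 were lower and 4 higher, with 2 to 5 lower and 1 to 5 higher as each array was left out. Over all genes 3.32% were lower and 2.99% higher past the limit.

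**Figure D4:**
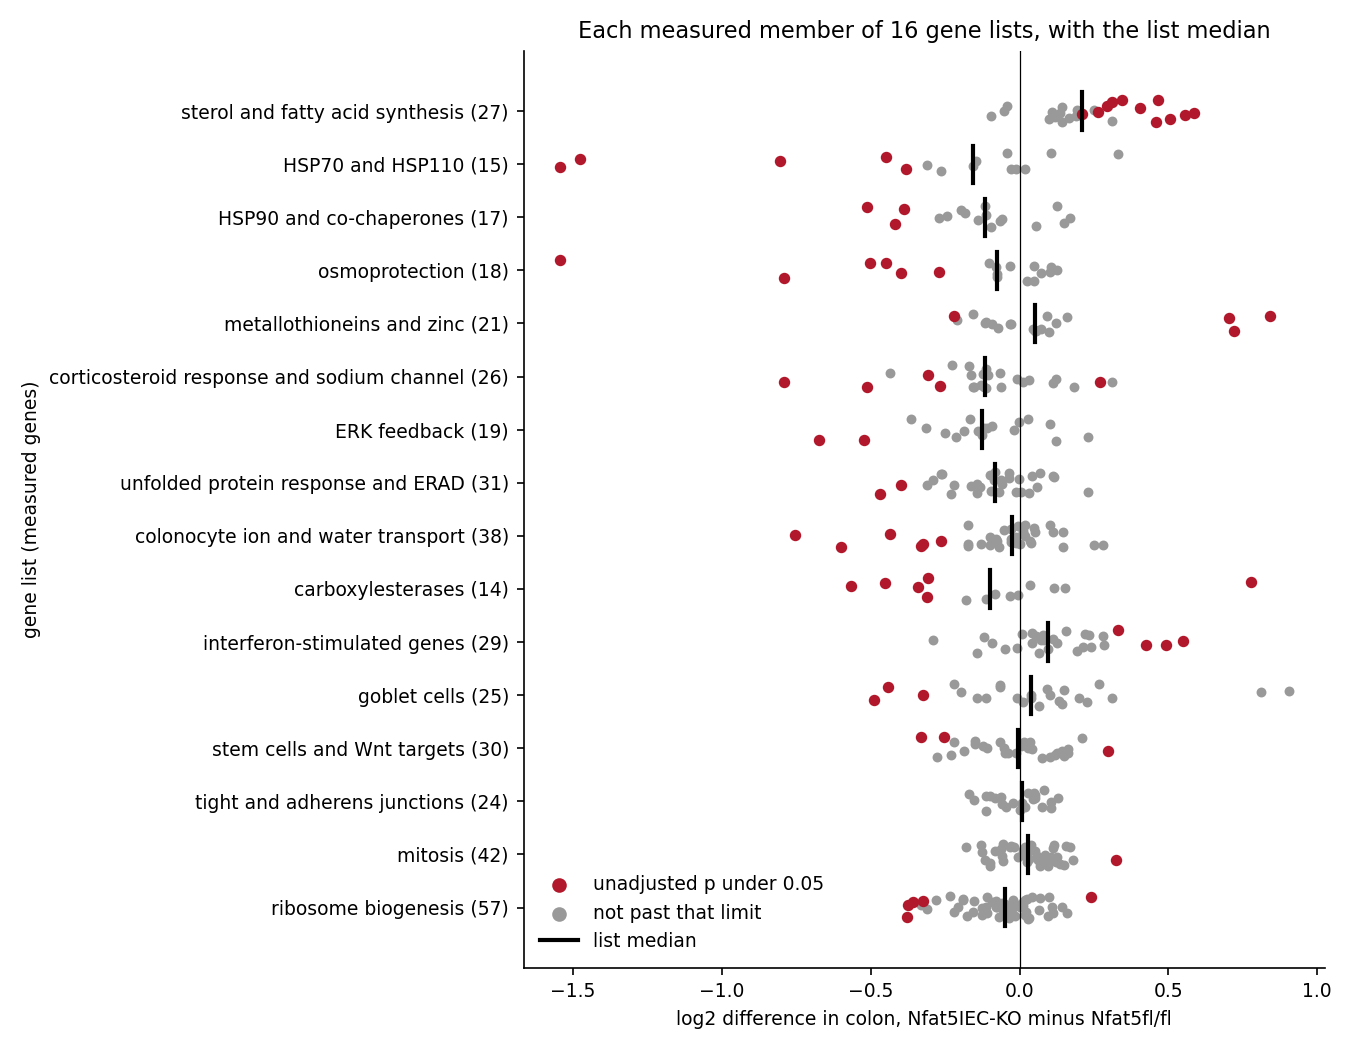
Log2 difference in the colon, *Nfat5IEC-KO* minus *Nfat5fl/fl*, for each measured gene (dot) of 16 lists, with the number measured beside each name and a black bar at the list median. Red dots are past an unadjusted p of 0.05, and the sterol and fatty acid synthesis list has the highest median, 0.21.

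The colon differences were set against those of the ileal arrays by a contrast of both over all 12 arrays. At an adjusted p under 0.05 this contrast called 0 clusters (0.0%), with a smallest adjusted p of 0.0609, and at an unadjusted p under 0.05 it called 2744 (10.8%). Without replicate 2 of the ileal *Nfat5IEC-KO* arrays it called 239 clusters, so the count depended on that array. *Mt1* differed by 0.84 in the colon and by 2.26 in the ileum, so the contrast was -1.41 (adjusted p = 0.0732 from limma). *Mt2* differed by 0.70 in the colon and by 2.83 in the ileum (adjusted p = 0.0609). *Slc9a3* was at -0.76 in the colon and 0.56 in the ileum, where its groups overlapped (adjusted p = 0.219). For *Mpp1* the values were -1.26 in the colon and 0.14 in the ileum, and the contrast was -1.40 (adjusted p = 0.137). For *Hsph1* and *Hspa1b* the contrast did not reach p under 0.05. *Hsph1* was at -1.48 in the colon and -2.10 in the ileum, with a contrast of 0.62 (adjusted p = 0.626), and *Hspa1b* at -1.54 in the colon and -1.88 in the ileum, with a contrast of 0.34 (adjusted p = 0.897). Of the 27 sterol and fatty acid genes 7 passed p under 0.05 for the contrast, and their list median was 0.21 in the colon and 0.01 in the ileum. *Lgr5* differed by 0.30 in the colon and by -0.88 in the ileum (adjusted p = 0.23).

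**Figure D5:**
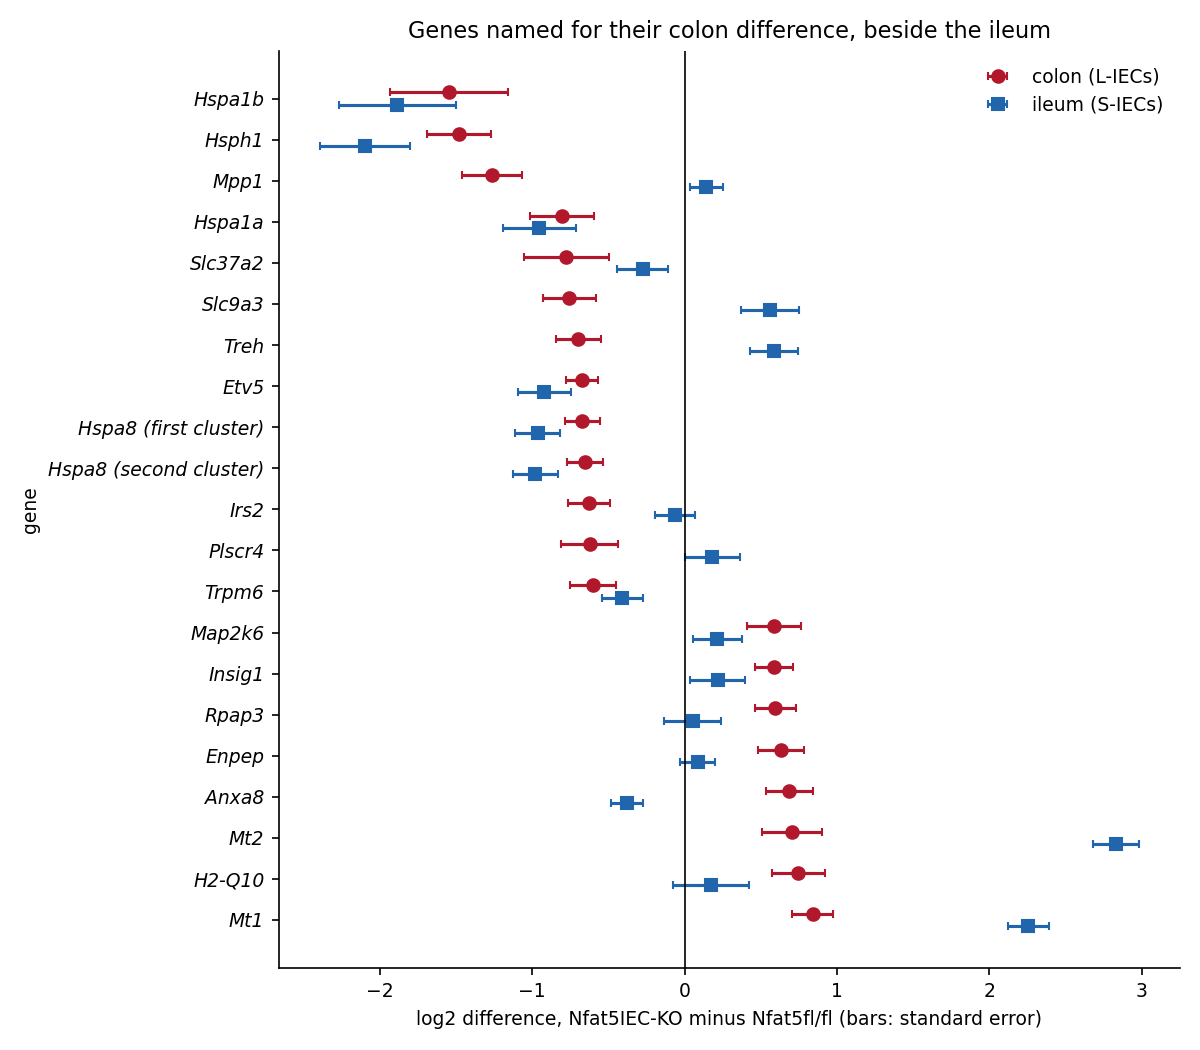
Log2 difference, *Nfat5IEC-KO* minus *Nfat5fl/fl*, in the colon (red circles) and the ileum (blue squares) for the 21 clusters named by the rule of largest colon differences, with standard errors from limma. *Mpp1*, *Slc9a3*, *Treh*, *Plscr4* and *Anxa8* lie on opposite sides of 0 in the tissues, and *Mt1* and *Mt2* lie farther from 0 in the ileum.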

How the data were processed

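Total RNA of colon (L-IECs) and ileal (S-IECs) epithelial cells was measured on 12 Affymetrix arrays, 3 for each tissue and genotype, grouped by the sample labels. The authors deposited log2 values per transcript cluster, made per the labels in Transcriptome Analysis Console with mm10; no source names the version, the background correction or the normalization. Batches could not be tested, since no scan date was at hand. The small number of arrays limits the precision.

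The platform's annotation gives 1 gene symbol for 23521 of 41345 clusters, more than 1 for 1820 and no symbol for 16004; 23328 matched RefSeq genes (GRCm38.p6) by Entrez identifier, which changed 0 symbols. The 6 colon arrays were fitted with limma 3.58.1 (lmFit, eBayes) in R 4.3.3 over the 25341 named clusters with Benjamini-Hochberg adjustment, and the contrast between tissues on all 12 arrays. Figures and summaries used Python 3.11.15, pandas 2.3.3, numpy 2.4.6 and matplotlib 3.10.9. The scripts were tested on simulated data.

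For gene lists each gene was given by its brightest cluster, which left 22180 genes. The 43 lists hold 1140 genes, of which 1035 were measured. The members and lists were chosen with earlier results of these data known. Genes were named by rule: among clusters of 1 symbol past p 0.05 before adjustment, 1.5-fold, with no overlap and a mean log2 value of 5 or more, the 15 largest differences in each direction without predicted genes, small RNAs and receptor segments; for each list its members past that limit and at least the 2 of smallest p; the genes the study names; and all NFAT, HSP70, HSP110 and metallothionein genes. Some genes that met this rule, such as *Hoxd13*, *Fosl2*, *Olfm4* and *Il6*, are not given in the report. Other members, such as *Cyp51*, *Srebf1*, *Hsp90aa1*, *Aqp8* or *Retnlb*, were named after their values were seen, as were clusters of several symbols. Alternatives were a block for the replicate number, a joint fit of 12 arrays, trended and robust variance, array weights, quantile normalization, median centring, a filter on clusters under a log2 value of 5, every cluster of the table, clusters of 1 symbol, the methods' t-test, a limit of 1.2-fold and leaving out each array.

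Lists not described in the report gave the following counts past that limit, where 3.32% of all genes were lower and 2.99% higher. Lower and higher were 1 and 0 of 23 immediate early genes, 2 and 0 of 19 clock genes, 1 and 1 of 37 conjugation genes, 3 and 0 of 14 Paneth cell genes, 2 and 1 of 30 ileal enterocyte genes, 3 and 2 of 36 antimicrobial and inflammatory genes, 0 and 0 of 11 MHC class II genes and 0 and 0 of 2 erythrocyte genes. They were 1 and 1 of 51 DNA replication genes, 0 and 2 of 31 apoptosis genes, 3 and 0 of 34 fatty acid oxidation genes, 0 and 1 of 30 respiratory chain genes, 0 and 0 of 4 sex chromosome genes, 1 and 0 of 13 colon markers and 2 and 1 of 15 genes the study names.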

Additional observations from a re-analysis of the deposited data

Results flagged for a closer look

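The 134 named clusters past an unadjusted p of 0.05 in the colon were searched for opposite sides in the tissues. In 11 of them all *Nfat5IEC-KO* arrays lay on one side of all *Nfat5fl/fl* arrays in the colon and on the other in the ileum. The searched clusters were thus chosen by their colon values. The share of all 25341 clusters with this pattern was not counted, so the count of 11 cannot be weighed. The difference between the tissues (colon difference minus ileal difference, log2) was tested with limma's contrast over 12 arrays, and none of the 11 had an adjusted p under 0.05.

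On the lower side in the colon, *Mpp1* had a difference between the tissues of -1.40 (adjusted p = 0.137), with 5.68, 4.98 and 5.75 in *Nfat5IEC-KO* and 6.85, 6.62 and 6.72 in *Nfat5fl/fl* colon arrays and, in the ileum, 9.66, 9.75 and 9.76 in arrays labelled *Nfat5IEC-KO* and 9.63, 9.51 and 9.59 in arrays labelled *Nfat5fl/fl*. *Treh* had -1.28 (adjusted p = 0.155), with colon values at a low level and ileal values of 9.37, 9.61 and 9.59 in arrays labelled *Nfat5IEC-KO* and 9.25, 8.74 and 8.81 in arrays labelled *Nfat5fl/fl*. *Cd36*, a fatty acid carrier, had -1.62 (adjusted p = 0.228), from -0.29 in the colon and 1.32 in the ileum. The intestinal alkaline phosphatase gene *Alpi* had -0.78 (adjusted p = 0.237), and *Cidec*, a lipid droplet gene, had -0.76 (adjusted p = 0.228). *Mex3a*, a marker of slowly cycling progenitors, had -0.65 (adjusted p = 0.256). The clock gene *Npas2* had -0.52 (adjusted p = 0.263) and the enterocyte factor *Hnf4g* -0.35 (adjusted p = 0.34). *Cd36*, *Alpi*, *Cidec*, *Mex3a*, *Npas2* and *Hnf4g* lost an unadjusted p under 0.05 in the colon without at least 1 colon array.

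On the higher side in the colon, *Anxa8* had 1.06 (adjusted p = 0.155), with 7.14, 6.95 and 6.70 in *Nfat5IEC-KO* and 6.28, 6.01 and 6.44 in *Nfat5fl/fl* colon arrays and, in the ileum, 3.76, 3.65 and 3.62 in arrays labelled *Nfat5IEC-KO* and 4.05, 4.06 and 4.04 in arrays labelled *Nfat5fl/fl*. *Npm1*, which encodes nucleophosmin of the nucleolus, had 0.83 (adjusted p = 0.197), and the cluster annotated to the fibrillarin gene together with *Tulp4* (*Fbl;Tulp4*) had 1.197 (adjusted p = 0.213). Both lost an unadjusted p under 0.05 in the colon without at least 1 colon array. The ileal arrays labelled *Nfat5IEC-KO* had overlapping *Nfat5* values with their controls, and the part of this in the differences was not tested.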

How the results depend on the processing

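Against 60 lower and 55 higher clusters past 1.5-fold and p 0.05 before adjustment, 19 and 17 were counted with a filter on clusters under a log2 value of 5, 312 and 299 over every cluster of the table, which tests more clusters, 35 and 29 with the methods' t-test and 762 and 673 at 1.2-fold. Leaving out each array gave 88 to 108 lower and 77 to 106 higher clusters. The replicate number as a block gave 64 and 55. Same-numbered colon arrays of different genotype deviated from their group means with correlations of -0.023, -0.017 and -0.027, so the numbers showed no pairing of them. The titles do not say whether colon and ileal arrays of 1 number come from 1 mouse. Such arrays had correlations of -0.0375, 0.0207 and -0.014 in *Nfat5IEC-KO* and -0.0147, -0.00238 and 0.0532 in *Nfat5fl/fl*. The contrast between tissues was fitted without pairing them. At an adjusted p under 0.05 the count of 0 in the colon became 13 with trended and robust variance and ran from 0 to 1 as each array was left out, with *Hsph1* the 1 called without *Nfat5fl/fl* replicate 3. It was 0 under the block and the other alternatives, beside 848 lower and 753 higher clusters at an unadjusted p under 0.05. The contrast between tissues gave 84 clusters with trended and robust variance, 6 with the filter and 0 to 239 as each array was left out, the highest without S-IECs *Nfat5IEC-KO* replicate 2. The causes of these changes were not tested. No named cluster past p 0.05 changed direction under any of these settings. Of 258 list medians with 1 array left out, 22 moved by more than the spread of the list mean between arrays, and of 86 under the other alternatives 0 did. Genes under a log2 value of 5, such as *Hspa1a* in *Nfat5IEC-KO*, *Treh*, *Slc30a2* and the defensins in the colon, lie where array values say least about level.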

Other observations

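A stretch of chromosome 12 that holds the imprinted genes *Dlk1*, *Meg3* and *Rian* with their small RNAs was looked at after its values were seen, so the values are a description without a test. *Rian*, a noncoding RNA that hosts small nucleolar RNAs and is read from the maternal chromosome, had 5.24, 5.32 and 5.26 in *Nfat5IEC-KO* and 5.78, 5.98 and 5.81 in *Nfat5fl/fl* arrays. The small RNA cluster *AF357355* had 5.99, 5.17 and 5.45 in *Nfat5IEC-KO* and 6.41, 6.44 and 6.74 in *Nfat5fl/fl* arrays, and *Mir493* had 3.14, 3.09 and 3.46 in *Nfat5IEC-KO* and 4.10, 3.87 and 4.13 in *Nfat5fl/fl* arrays. Neither these nor *Rian* overlapped between the genotypes. *Meg3* differed by -0.15 and *Dlk1* by -0.05. Over the 56 clusters of the stretch the median difference was -0.121, and 10 had a mean log2 value of 5 or more. At an unadjusted p under 0.05, 7 were lower and 2 higher, against 3.35% lower and 2.97% higher of all tested clusters. In the ileum *Rian* differed by 0.38. *Cirbp*, the cold-inducible RNA-binding protein that heat lowers in many cells, had 6.31, 6.50 and 6.01 in *Nfat5IEC-KO* and 5.72, 5.72 and 5.83 in *Nfat5fl/fl* colon arrays, and was also singled out after its values were seen.

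Among genes of drug metabolism, *Cyp2c69* had 3.005, 3.19 and 2.95 in *Nfat5IEC-KO* and 4.602, 3.27 and 4.45 in *Nfat5fl/fl* arrays and *Cyp3a25* had 3.997, 3.83 and 3.99 in *Nfat5IEC-KO* and 2.96, 2.51 and 3.72 in *Nfat5fl/fl* arrays, in opposite directions and all under a log2 value of 5. *Ccl25*, the chemokine that draws lymphocytes to the gut, had 5.61, 5.51 and 5.67 in *Nfat5IEC-KO* and 6.43, 6.18 and 5.82 in *Nfat5fl/fl* arrays, without overlap.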
